A study of Homo sapiens with 4 samples.

Results

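Voltage-gated calcium and sodium channels are the membrane proteins that carry the inward currents of the action potential. The genes described here are the protein-coding genes whose symbol begins with CACNA1, CACNA2D, CACNB or CACNG, or with SCN followed by a digit, and 40 of the 60234 genes in the table of reads met that rule. They comprise 10 pore-forming calcium channel genes, 4 alpha2delta, 4 beta and 8 gamma subunit genes, 10 pore-forming sodium channel genes and 4 sodium channel beta subunit genes. Of these, 33 had a mean of at least 1 CPM over the 4 libraries, where CPM is the read count scaled to the size of its library with factors from the trimmed mean of M values (TMM), and these 33 entered the counts below.

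In heart muscle, sodium channels open first and drive the fast upstroke. L-type calcium channels then admit the calcium that releases more calcium from the sarcoplasmic reticulum, while T-type channels open at more negative voltages and contribute to pacemaking. The pore-forming subunit sets the type of current, and the alpha2delta and beta subunits carry it to the membrane and tune its gating.

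The cells came from the NKX2.5 (eGFP/w) hESC line, an established human embryonic stem cell line in which GFP was placed in a single NKX2-5 allele, so that fluorescence follows activity of that locus. They were differentiated to cardiomyocytes as spin embryoid bodies, aggregates formed by centrifugation. RA-treated cultures received 1 µM retinoic acid from day 4 to day 7, and control (CTR) cultures received the solvent DMSO. At day 31 each was sorted by GFP into GFP-positive and GFP-negative cells, which gave 1 library for each of 4 groups. RA and CTR cells were separate cultures, so treatment and culture cannot be told apart, and no group has a replicate. Differences are therefore given as values with counting error and no p-value, and in a bulk library fewer cells of a type and less RNA per cell cannot be told apart. Sorting on GFP did not define cell types by itself, and each fraction is called by its gate.

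The libraries held between 26222787 and 28643091 counted reads, except that CTR GFP-negative cells had 4371101. A gene with 3 reads stood at 0.639 CPM in that library and at 0.105 to 0.117 CPM in the other libraries, so that low channel genes were least certain there. Mitochondrially encoded genes took 14.9% and 14.1% of the reads in the GFP-positive libraries and 5.56% and 7.48% in the GFP-negative libraries, RA first. NKX2-5, the locus behind the sort, had 12373 and 16991 reads in the GFP-positive libraries and 250 and 68 reads in the GFP-negative libraries, RA first in each pair. The 11 cardiomyocyte markers summed to 24700 CPM in RA-treated and 25791 CPM in CTR GFP-positive cells, against 634 and 1162 CPM in the GFP-negative cells. Every marker of that list was at least 2-fold higher in GFP-positive cells of both cultures.

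Channel genes summed to 966 CPM in RA-treated GFP-positive cells and 876 CPM in CTR GFP-positive cells. The GFP-negative sums were 408 CPM with RA and 536 CPM in CTR. At least 4 reads were found for 37 and 34 of the 40 genes in the GFP-positive libraries and for 37 and 32 in the GFP-negative libraries, RA first. The 7 genes below the mean of 1 CPM ranged from no read to 0.852 CPM in any library. They were CACNG1, CACNG2, CACNG3 and CACNG5, the R-type pore gene CACNA1E, the sodium channel beta subunit gene SCN4B and the sensory neuron channel gene SCN10A. In SCN4B, the member of this group with the highest mean, 21 and 22 reads were counted in RA-treated and CTR GFP-positive cells and 6 and 3 reads in the GFP-negative cells.

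**Figure D1:**
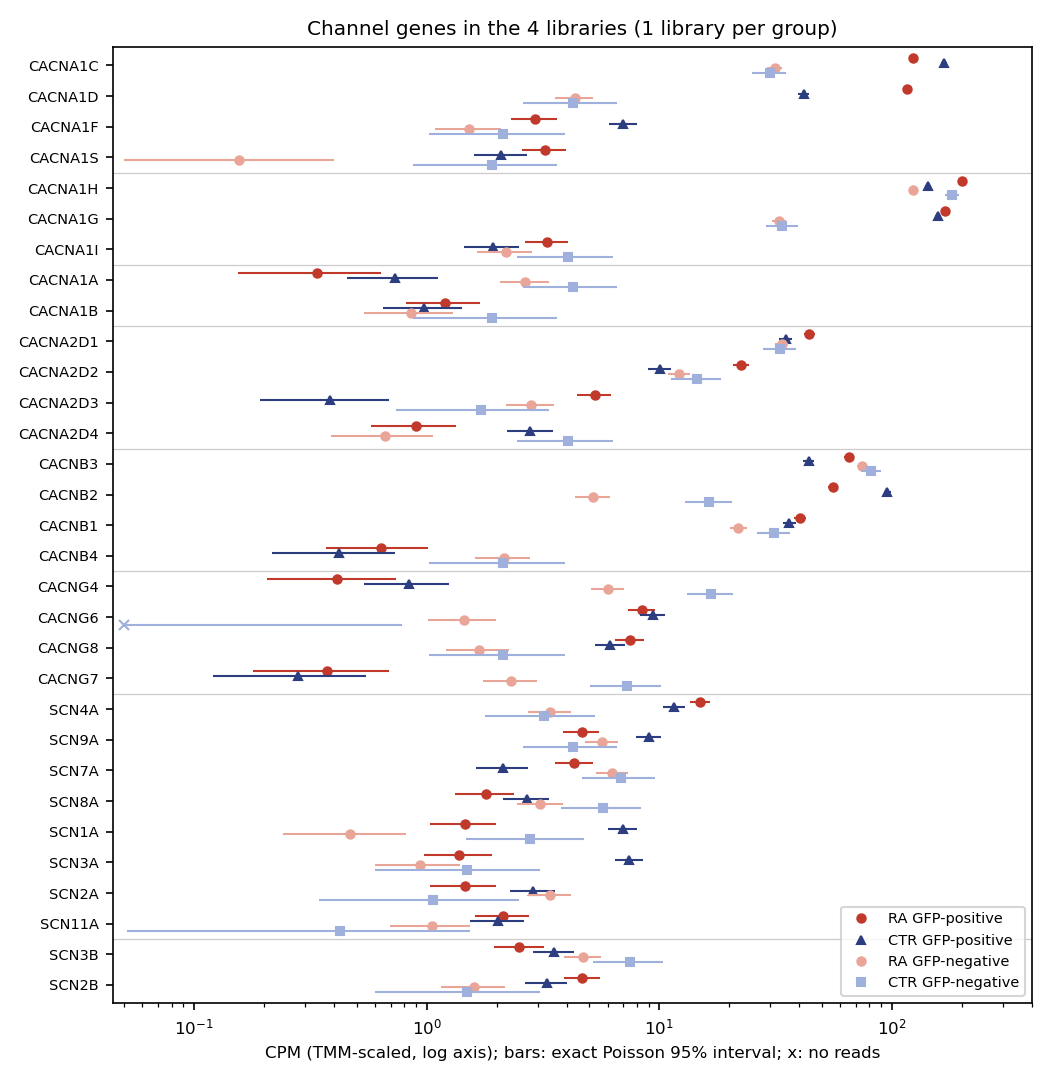
Level of 31 channel genes in the 4 libraries, as TMM-scaled CPM on a log axis, grouped by subunit class; points are single libraries, bars are exact Poisson 95% intervals of counting error, and a cross marks no read. CACNA1C, CACNA1D and CACNB2 lie far higher in the GFP-positive libraries, and the CTR GFP-negative library has the widest intervals.

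Among the L-type pore genes, CACNA1C and CACNA1D carried nearly all of the level. CACNA1C, the pore gene of the main L-type channel of working myocardium, stood at 123 CPM with RA and 167 CPM in CTR in the GFP-positive libraries, and at 31.3 CPM with RA and 29.8 CPM in CTR in the GFP-negative libraries. CACNA1D, whose channel opens at more negative voltages and is known from atrial and sinus node cells, stood at 117, 41.7, 4.33 and 4.26 CPM in the same order. Both were high in the GFP-positive libraries and low in the GFP-negative libraries, but the GFP-positive libraries ranked in opposite order for the pair. CACNA1F, a channel gene of the retina, had 2.92, 7.01, 1.52 and 2.13 CPM. CACNA1S, the L-type pore gene of skeletal muscle, had 3.22, 2.09, 0.156 and 1.92 CPM, where the third value rests on 4 reads and the last on 9.

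The T-type pore genes CACNA1G and CACNA1H were abundant in the GFP-positive libraries. CACNA1G stood at 168 CPM in RA-treated and 158 CPM in CTR GFP-positive cells and at 32.7 and 33.6 CPM in the GFP-negative cells. CACNA1H stood at 200.2, 143, 123 and 182 CPM in the order RA-treated GFP-positive, CTR GFP-positive, RA-treated GFP-negative and CTR GFP-negative. Thus CACNA1G separated the sorted fractions, whereas the fractions overlapped for CACNA1H. CACNA1I, a T-type gene known from neurons, reached 1.92 to 4.05 CPM. The genes of the P/Q-type and N-type channels of nerve terminals were low, with CACNA1A between 0.337 and 4.26 CPM and CACNA1B between 0.857 and 1.92 CPM.

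Scaled per kb of the longest transcript, which allows levels of different genes to be set side by side, CACNA1D and CACNA1C changed places. In RA-treated GFP-positive cells CACNA1D stood at 12.4 and CACNA1C at 8.88 CPM per kb. In CTR GFP-positive cells CACNA1D stood at 4.42 and CACNA1C at 12.05 CPM per kb. Of the summed level of the 10 pore-forming calcium channel genes, CACNA1D took 18.5% with RA and 8.16% in CTR GFP-positive cells, while CACNA1C took 13.3% and 22.3%. With the union of all exons as length the shares were lower, 11.6% and 5.09% for CACNA1D and 9.25% and 15.4% for CACNA1C, and the pair kept its order in each library. The L-type sum per kb was 22.2 with RA and 17.96 in CTR GFP-positive cells, and the T-type sum was 44.3 and 36.0. In GFP-negative cells CACNA1H alone took 66.8% with RA and 72.7% in CTR, as the other abundant pore genes were low there. CACNA1G and CACNA1H lay close together in CTR GFP-positive cells, at 33.9% and 32.2%, and their order turned when the union of all exons was used as length (36.8% and 39.0%).

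The auxiliary calcium channel genes differed in how far they followed the sort. CACNA2D1, the main alpha2delta gene of heart, lay between 33.0 and 44.2 CPM in all 4 libraries. CACNA2D2 had 22.5 CPM in RA-treated GFP-positive cells and 10.1 CPM in CTR GFP-positive cells, with 12.2 and 14.5 CPM in the GFP-negative cells. CACNA2D3 had 5.27, 0.384, 2.81 and 1.70 CPM, so that CTR GFP-positive cells were the lowest. CACNA2D4, an alpha2delta gene of the retina, had 0.897, 2.79, 0.662 and 4.05 CPM, higher in both CTR libraries.

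CACNB2, the main beta subunit gene of cardiac L-type channels, stood at 55.6 CPM in RA-treated GFP-positive cells and 95.7 CPM in CTR GFP-positive cells. It stood at 5.18 CPM in RA-treated and 16.4 CPM in CTR GFP-negative cells, so that it was lower with RA in both fractions. CACNB3 stood at 65.1, 43.9, 74.3 and 81.4 CPM and CACNB1, known from skeletal muscle, at 40.3, 36.2, 21.8 and 31.1 CPM. Per kb, CACNB2 took 46.8% of the beta subunit level in CTR GFP-positive cells, and CACNB3 took the largest share in the other 3 libraries, 49.1% in RA-treated GFP-positive, 78.0% in RA-treated GFP-negative and 69.7% in CTR GFP-negative cells. CACNB2 took 27.6% in RA-treated GFP-positive cells, close to the 23.1% of CACNB1, and these last 2 shares changed order with the exon union length (25.1% and 28.7%). CACNB4, a neuronal beta subunit gene, stayed between 0.419 and 2.14 CPM.

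The gamma subunit genes split by fraction. CACNG6, a relative of the skeletal muscle gamma subunit, had 225 and 269 reads in the GFP-positive libraries, RA first, 37 reads in the RA-treated GFP-negative library and none in its CTR counterpart. CACNG4, CACNG7 and CACNG8 belong to the gamma genes known as regulators of AMPA-type glutamate receptors. CACNG4 had 0.411 and 0.838 CPM in the GFP-positive libraries against 6.001 and 16.6 CPM in the GFP-negative libraries, RA first. CACNG7 had 0.374 and 0.279 CPM against 2.30 and 7.24 CPM, whereas CACNG8 ran the other way, with 7.48 and 6.14 CPM against 1.68 and 2.13 CPM. Of the gamma level per kb, CACNG6 took 74.99% and 78.4% in GFP-positive cells and CACNG4 took 48.6% and 61.5% in GFP-negative cells.

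SCN4A, the sodium channel pore gene of skeletal muscle, stood at 14.96 and 11.6 CPM in the GFP-positive libraries, against 3.39 and 3.19 CPM in the GFP-negative libraries, RA first. It took 20.9% and 13.7% of the sodium channel pore level per kb in the GFP-positive libraries. SCN7A, whose product senses sodium rather than voltage, took 26.6% in RA-treated and 24.2% in CTR GFP-negative cells, against 6.28% and 2.64% in the GFP-positive cells.

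Sodium channel genes known from brain were low but not uniform. SCN1A had 1.46, 6.98, 0.468 and 2.77 CPM in the order RA-treated GFP-positive, CTR GFP-positive, RA-treated GFP-negative and CTR GFP-negative. SCN3A had 1.38, 7.43, 0.935 and 1.49 CPM. For both, CTR GFP-positive cells stood above the other 3 libraries. SCN2A ranged from 1.06 to 3.39 CPM and SCN8A from 1.79 to 5.75 CPM, while the sensory neuron genes SCN9A and SCN11A ranged from 4.26 to 9.004 and from 0.426 to 2.13 CPM. Among the beta subunit genes, which anchor and modulate the pore, SCN2B ranged from 1.49 to 4.67 CPM and SCN3B from 2.51 to 7.45 CPM.

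**Figure D2:**
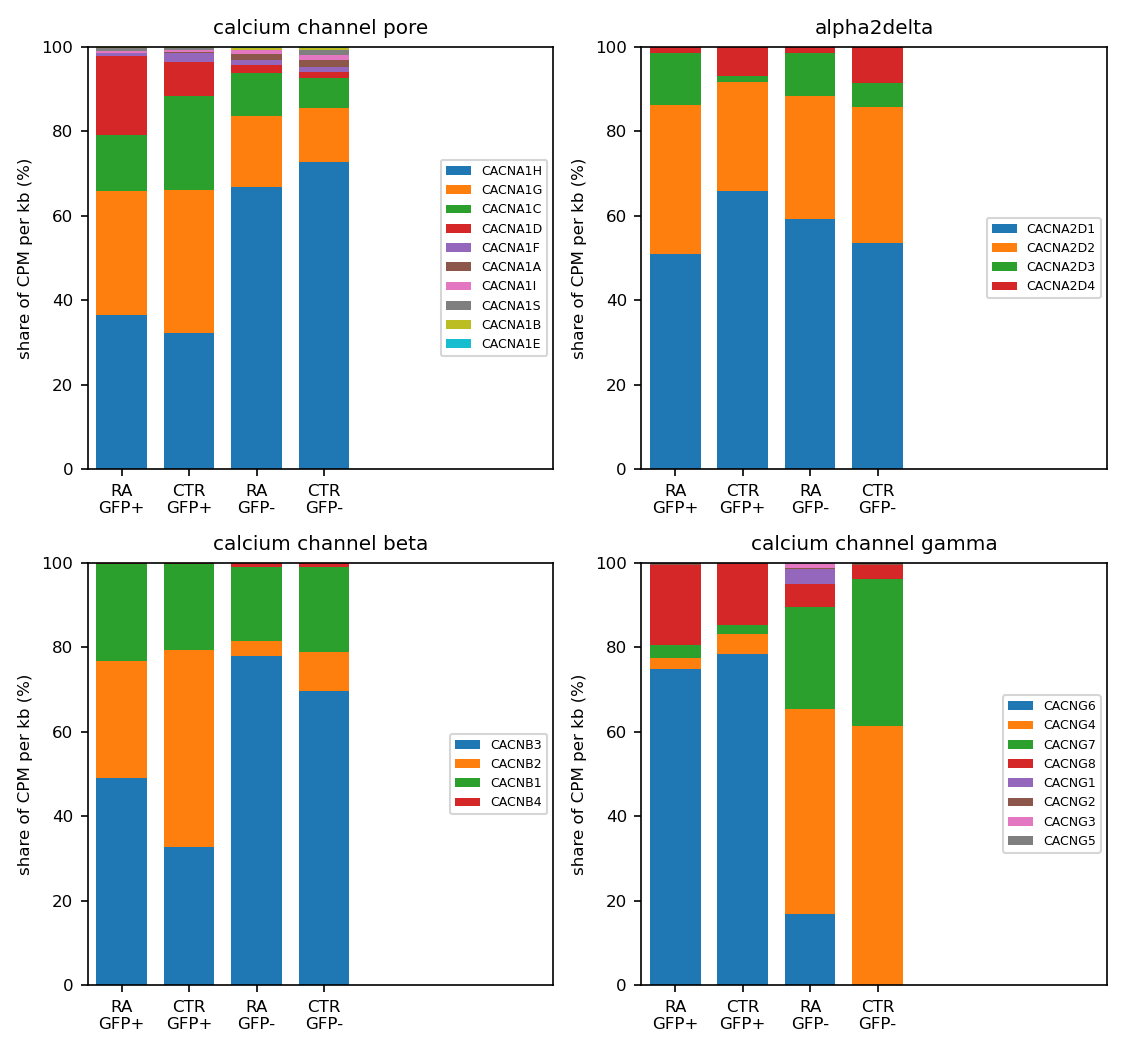
Share of each calcium channel gene in the level of its subunit family in the 4 libraries, in percent of the family's summed CPM per kb of the longest transcript. CACNA1D takes 18.5% of the pore-forming calcium channel level in RA-treated GFP-positive cells and 8.16% in CTR GFP-positive cells (11.6% and 5.09% with the exon union length), and CACNB2 takes 27.6% and 46.8% of the beta subunit level.

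To ask which channel genes followed the NKX2-5 sort, each GFP-positive library was set against the GFP-negative library of its treatment. A gene was counted as apart when log2(CPM + 1) differed by at least 1, that is 2-fold with a pseudocount of 1 CPM. This limit is meant wherever genes are counted as 2-fold higher, lower or apart. It understates the change of low genes, so that a gene under it can have a CPM ratio past 2-fold, and the folds quoted are ratios of CPM without the pseudocount, with Clopper-Pearson 95% intervals. These intervals cover counting error only, and amplified reads are not independent molecules.

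In CTR cells, 12 of the 33 counted channel genes were at least 2-fold higher in GFP-positive cells and 5 were lower, while 13.3% and 15.1% of the 17199 genes with a mean of at least 1 CPM were higher and lower. With RA, 10 were higher and 3 lower, against 10.2% and 13.4% of all counted genes. In percent, 51.5% of the counted channel genes were apart in CTR, beside 28.4% of all genes, and 39.4% with RA, beside 23.6%. A low gene can pass the minimum through the library in which it is high, so these counts describe the genes that passed and no more. The median difference of the channel genes was 0.09 in CTR and 0.61 with RA, against 0.05 and 0.02 for all counted genes.

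Among the genes higher in GFP-positive cells of both cultures were the cardiac L-type and T-type pore genes CACNA1C, CACNA1D and CACNA1G, the beta subunit gene CACNB2, the sodium channel gene SCN4A, and CACNG6 and CACNG8. The ratio for CACNA1D was 9.78 in CTR (6.31 to 16.1) and 26.9 with RA (22.3 to 32.9). SCN4A was 3.63-fold higher in CTR (2.17 to 6.55) and 4.41-fold higher with RA (3.49 to 5.63). CACNB2 was 5.84-fold (4.65 to 7.42) and 10.7-fold higher (8.98 to 12.9).

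CACNA1C and CACNA1G showed smaller ratios than CACNA1D, with closer values in the cultures. CACNA1C was 5.61-fold higher in CTR (4.74 to 6.69) and 3.94-fold higher with RA (3.65 to 4.26). The same ratios for CACNA1G were 4.70 (4.01 to 5.54) and 5.15 (4.78 to 5.55). CACNG6 was at least 14.7-fold higher in CTR, where the GFP-negative library had no read and a floor of 3 reads was used, and 5.83-fold higher with RA (4.11 to 8.50). Whether the ratios differed between the cultures was not tested, since each group had 1 library. Cardiomyocyte markers moved with these genes, and their part in the differences was not tested.

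CACNA1F, SCN3A, SCN1A and SCN11A were also higher in CTR GFP-positive cells, and CACNA1S and SCN2B in RA-treated GFP-positive cells. Each passed the limit in that culture alone. With RA the differences were 0.64 for CACNA1F, 0.30 for SCN3A, 0.74 for SCN1A and 0.61 for SCN11A. With a pseudocount of 0.25 CPM, SCN1A stood at 1.26 in CTR and 1.25 with RA. SCN11A rested on 58 against 2 reads, a ratio of 4.75 (1.26 to 40.2), and CACNA1S on 86 against 4 reads, a ratio of 20.6 (7.77 to 77.4). SCN2B lost its call when all libraries were thinned to 4371101 reads (0.27 on the log2 scale, against 1.13).

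CACNG4, CACNG7 and CACNA1A were lower in GFP-positive cells of both cultures. CACNG4 was 19.8-fold lower in CTR (12.4 to 32.8) and 14.6-fold lower with RA (7.93 to 29.8). CACNG7 was 25.9-fold (11.8 to 64.9) and 6.15-fold lower (3.12 to 13.5), and CACNA1A, the P/Q-type pore gene, 5.81-fold (2.99 to 11.3) and 7.87-fold lower (3.91 to 17.95). CACNB4 and SCN7A were lower in CTR alone by this limit, with differences of -1.14 and -1.32 in CTR and -0.94 and -0.46 with RA. In thinned libraries SCN7A was within the limit in CTR (-0.67) and CACNG7 with RA (-0.77).

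Neuron markers lay with this group in CTR: 10 of 11 were at least 2-fold lower in GFP-positive cells and SNAP25 was 2.67-fold higher (1.73 to 4.31), and with RA 1 of 11 was lower. Their summed level was 102 and 33.3 CPM in the GFP-positive libraries and 161 and 144 CPM in the GFP-negative libraries, RA first, and all 11 had reads in every library. Retinal pigment and neural crest markers summed to 839 CPM in CTR GFP-negative cells and to 94.1 to 109 CPM in the other 3 libraries. At least 2-fold lower in GFP-positive cells were also 7 of 8 fibroblast markers and 6 of 7 endothelium markers in each culture, and 4 of 9 gut and liver endoderm markers in CTR and 9 of 9 with RA, whereas PDGFRA of the fibroblast list was 2.13-fold higher in GFP-positive than GFP-negative cells of the RA-treated culture (2.05 to 2.22). The part of these cell types in the levels of CACNG4, CACNG7 and CACNA1A was not tested.

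**Figure D3:**
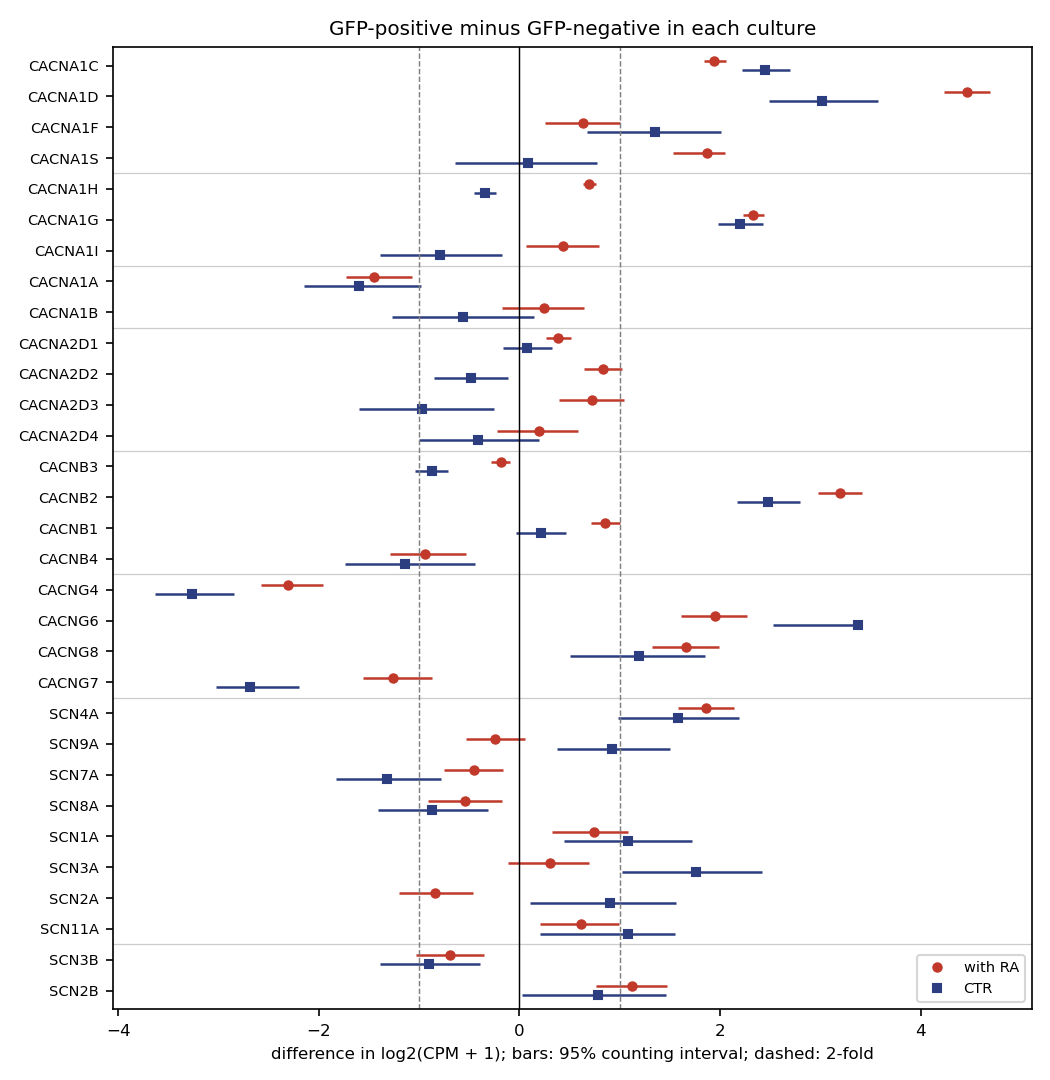
GFP-positive minus GFP-negative difference in log2(CPM + 1) for 31 channel genes in CTR and RA-treated cultures, 1 library per group; bars are 95% counting intervals and dashed lines mark 2-fold. CACNA1D lies at 3.02 in CTR and 4.46 with RA, and CACNG4 at -3.26 and -2.31.

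The study used RA during differentiation to direct cells from a ventricular towards an atrial fate, and the next comparison set RA-treated against CTR GFP-positive cells. Of the 33 counted channel genes, 3 were at least 2-fold higher with RA and 3 were lower, where 4.91% and 1.82% of all counted genes were higher and lower, 6.73% in either direction. The remaining 27 differed by less than 1 in log2(CPM + 1), and the median difference was 0.10 against 0.02 for all counted genes, but -0.04 in thinned libraries. CACNA1D, CACNA2D3 and CACNA2D2 were higher, and SCN3A, SCN1A and CACNA1F were lower.

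CACNA1D (ENSG00000157388, GRCh37 chr3:53362990-53847760, plus strand) had 3116 reads with RA and 1194 in CTR, which made it 2.80-fold higher (2.62 to 2.99), a difference of 1.46. It kept its call under all 6 alternatives of scaling, pseudocount and depth (1.38 to 1.64). Of its exon bases, 7.29% overlap CHDH on the opposite strand, a gene with 516 reads with RA and 949 in CTR. The counting did not use strand, and its mode (intersection-nonempty) leaves out a read that lies wholly in bases its annotation gives to both genes. The overlap was taken from another annotation than that of the counts, so the number of reads it touched is not known.

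CACNA2D3 (ENSG00000157445, GRCh37 chr3:54156579-55108584, plus strand) had 141 reads with RA and 11 in CTR, a 13.7-fold higher level (7.45 to 28.1) and a difference of 2.18. CACNA2D2 (ENSG00000007402, GRCh37 chr3:50400044-50541675, minus strand) had 601 against 288 reads and was 2.24-fold higher (1.94 to 2.58), a difference of 1.09. With a pseudocount of 5 CPM both fell under the limit, at 0.93 for CACNA2D3 and 0.87 for CACNA2D2. In thinned libraries the difference of CACNA2D2 was 0.79, also under it. Both genes encode alpha2delta subunits, and the alpha2delta sum per kb was 11.2 with RA and 6.84 in CTR GFP-positive cells, with CACNA2D1 at 1.27-fold (1.16 to 1.38). The remaining family member CACNA2D4 ran the other way, with 24 against 80 reads.

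SCN3A (ENSG00000153253, GRCh37 chr2:165944036-166060560, minus strand) had 37 reads with RA and 213 in CTR and was 5.37-fold lower (3.78 to 7.84), a difference of -1.82. SCN1A (ENSG00000144285, GRCh37 chr2:166841151-167005724, minus strand) had 39 against 200 reads and was 4.79-fold lower (3.38 to 6.93), a difference of -1.70. CACNA1F (ENSG00000102001, GRCh37 chrX:49061523-49089833, minus strand) had 78 against 201 reads and was 2.40-fold lower (1.84 to 3.17), a difference of -1.03. These 3 genes were all below 10 CPM in both libraries, and with a pseudocount of 5 CPM none passed the limit. SCN1A shares 8.61% of its exon bases with SCN1A-AS1 on the opposite strand, which had 7 and 8 reads.

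Other abundant calcium channel genes lay within 2-fold. CACNA1C had 3298 reads with RA and 4795 in CTR, a ratio of 0.737 (0.705 to 0.771) and a difference of -0.44. CACNB2 had 1488 and 2742 reads, a ratio of 0.581 (0.546 to 0.620) and a difference of -0.77. Ratios were 1.07 for CACNA1G (1.02 to 1.11) and 1.40 for CACNA1H (1.34 to 1.46). Counting error was small for these genes, but without replicates their spread between cultures is unknown.

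Just under the limit lay CACNA2D4 (a difference of -0.999), SCN9A (-0.83), CACNB2 and SCN7A (0.76). As CPM ratios, 4 genes under the limit were past 2-fold: CACNA2D4 was 3.11-fold (1.95 to 5.13), CACNA1A 2.18-fold (0.956 to 5.40) and CACNG4 2.04-fold lower (0.960 to 4.60), and SCN7A was 2.02-fold higher (1.47 to 2.80). Differences of SCN7A, SCN2B, CACNG8 and SCN11A, all under the limit, changed sign in thinned libraries, and SCN7A went to -0.14. Ratios whose counting interval left out 1 were above 1 for 13 and below 1 for 11 of the 33 genes, beside 33.3% and 28.8% of all counted genes.

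**Figure D4:**
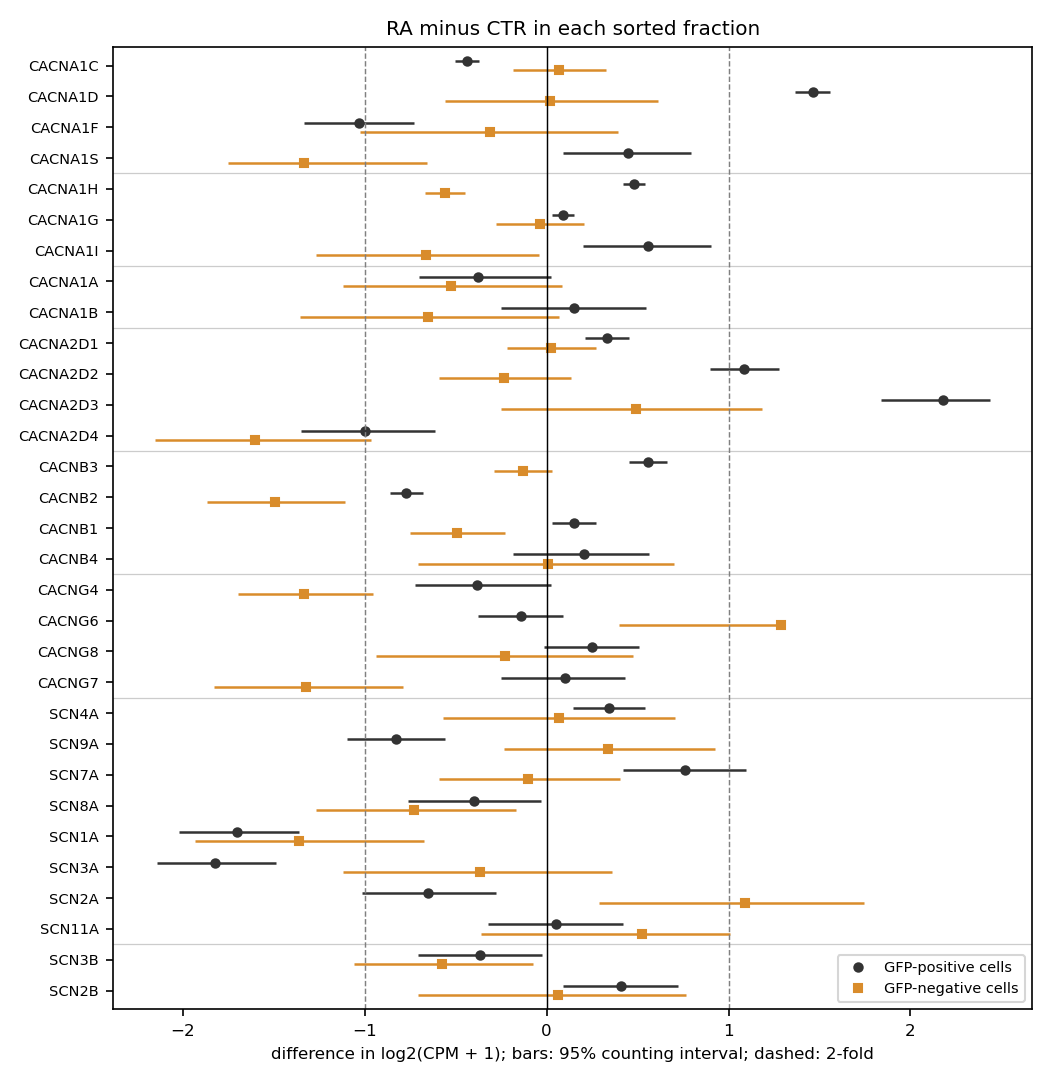
RA minus CTR difference in log2(CPM + 1) for 31 channel genes in GFP-positive and GFP-negative cells, 1 library per group; bars are 95% counting intervals and dashed lines mark 2-fold. In GFP-positive cells CACNA2D3 lies at 2.18 and CACNA1D at 1.46, and SCN3A at -1.82 and SCN1A at -1.70.

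Markers of other cell types also differed between the GFP-positive libraries. All 8 fibroblast markers were at least 2-fold higher with RA, with sums of 15172 CPM with RA and 3967 CPM in CTR. Of 7 smooth muscle markers 3 were higher, and MYH11 had 3069 reads with RA and 96 in CTR. Of 11 neuron markers 4 were higher and none lower, whereas the brain sodium channel genes SCN1A and SCN3A were lower with RA. The part of these cells in the channel differences was not tested. Endothelium markers summed to 109 with RA and 88.1 CPM in CTR GFP-positive cells, neuroendocrine markers to 2.95 and 3.45, and gut and liver endoderm markers to 92.2 and 36.4 CPM. Most of the endothelium sums came from EGFL7, at 91.6 and 71.2 CPM. KDR had 9.68 and 14.8 CPM, and no other endothelium marker exceeded 3.14 CPM in these libraries. Skeletal muscle markers summed to 408 and 372 CPM, with ACTA1 10.8-fold higher with RA (9.98 to 11.8) and CKM lower, at a ratio of 0.467 (0.450 to 0.484). ACTA1, at 235 and 21.7 CPM, and CKM, at 158 and 338 CPM, made up most of these sums. Of the 8 markers in that list, 4 had a mean of at least 1 CPM. MYOD1, MYF5, PAX7 and MYH8 had at most 9 reads in either GFP-positive library, whereas MYOG had 307 and 152 reads.

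In GFP-negative cells the same comparison rests on the shallow CTR library. There, 2 of the 33 counted channel genes were at least 2-fold higher with RA and 6 were lower, beside 7.34% and 5.35% of all counted genes (12.7% in either direction). When scaling used library size without mitochondrial genes, the split was 1 higher and 7 lower. The median difference was -0.31 against 0.07 for all counted genes. Counting intervals lay above a ratio of 1 for 2 and below it for 13 channel genes, beside 30.3% and 22.4% of all counted genes.

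CACNB2 was 3.16-fold lower with RA in GFP-negative cells (2.36 to 4.22), with 133 against 77 reads in libraries that differ 5.999-fold in depth. CACNG4 was 2.77-fold (2.08 to 3.66), CACNG7 3.15-fold (2.002 to 4.88) and CACNA2D4 6.11-fold lower (3.01 to 12.5). SCN1A had 12 against 13 reads and was 5.92-fold lower (2.49 to 14.2), and CACNA1S had 4 against 9 reads and was 12.3-fold lower (3.43 to 54.6). SCN2A was higher, with 87 against 5 reads and a ratio of 3.18 (1.31 to 10.1), and it is the gene under the limit when mitochondrial genes are left out of the scaling (0.97). CACNG6 had 37 reads against none, which sets the level with RA at least 2.26-fold above the floor of 3 reads. With a pseudocount of 5 CPM, only CACNB2 among these genes stayed past the limit (-1.07).

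CACNA1D, the gene with the most reads among those higher with RA in GFP-positive cells, had 111 and 20 reads in GFP-negative cells, a ratio of 1.02 (0.627 to 1.73). Cardiomyocyte markers were lower with RA in this fraction for 4 of 11 genes, retinal pigment and neural crest markers for 7 of 8, and gut and liver endoderm markers were higher for 7 of 9 and lower for 1. Of 11 neuron markers, which lay with CACNG4 and CACNG7 in CTR, 4 were lower and 2 higher with RA. Fibroblast markers were higher for 4 of 8, with sums of 61608 CPM with RA and 32112 CPM in CTR. In RA-treated GFP-negative cells the endoderm markers summed to 960 CPM, against 226 CPM in CTR. The part of these cell types in the channel differences was not tested.

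Promoter sequences are shown for the genes at least 2-fold apart between the GFP-positive libraries that had a RefSeq entry, and for CACNA1C beside its L-type relative CACNA1D. RefSeq entries on GRCh38.p14 matched 26 of the 40 channel genes, with 40 windows of 250 bases that end at an annotated transcription start. Capitals mark matches, on either strand, to 6 short motifs: AGGTCA, a nuclear receptor half-site; AAGTG, the core of the NKX2-5 site; AGGTGT, the T-box core; AGATAA, a word bound by GATA factors; GGGCGG, the GC box; and TATAAA, the TATA box. Overlapping matches were kept. For CACNA2D2, the window of the first of its 2 listed starts is given.
CACNA1D (chr3:53494361-53494610, plus strand): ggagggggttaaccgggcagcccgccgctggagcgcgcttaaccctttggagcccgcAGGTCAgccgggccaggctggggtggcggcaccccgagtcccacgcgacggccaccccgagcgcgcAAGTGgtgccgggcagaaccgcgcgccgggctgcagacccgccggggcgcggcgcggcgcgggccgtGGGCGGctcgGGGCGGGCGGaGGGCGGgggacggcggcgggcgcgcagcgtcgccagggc
CACNA1C (chr12:2052737-2052986, plus strand): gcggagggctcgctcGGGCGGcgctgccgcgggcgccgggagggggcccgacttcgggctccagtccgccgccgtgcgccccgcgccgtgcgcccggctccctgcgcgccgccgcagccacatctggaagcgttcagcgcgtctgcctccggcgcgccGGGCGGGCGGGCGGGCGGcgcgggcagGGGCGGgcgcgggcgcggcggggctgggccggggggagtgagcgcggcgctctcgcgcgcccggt
CACNA2D3 (chr3:54122302-54122551, plus strand): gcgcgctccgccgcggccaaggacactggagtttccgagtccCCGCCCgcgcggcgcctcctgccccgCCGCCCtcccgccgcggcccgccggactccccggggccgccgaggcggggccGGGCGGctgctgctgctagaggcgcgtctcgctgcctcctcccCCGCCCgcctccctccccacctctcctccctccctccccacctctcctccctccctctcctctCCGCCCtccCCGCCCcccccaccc
CACNA2D2 (chr3:50503635-50503884, minus strand): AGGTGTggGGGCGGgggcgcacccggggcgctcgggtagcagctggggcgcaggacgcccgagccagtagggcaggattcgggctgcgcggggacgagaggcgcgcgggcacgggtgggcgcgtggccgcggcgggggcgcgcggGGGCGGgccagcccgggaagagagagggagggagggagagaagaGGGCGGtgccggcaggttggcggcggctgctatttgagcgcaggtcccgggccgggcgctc
CACNA1F (chrX:49233341-49233590, minus strand): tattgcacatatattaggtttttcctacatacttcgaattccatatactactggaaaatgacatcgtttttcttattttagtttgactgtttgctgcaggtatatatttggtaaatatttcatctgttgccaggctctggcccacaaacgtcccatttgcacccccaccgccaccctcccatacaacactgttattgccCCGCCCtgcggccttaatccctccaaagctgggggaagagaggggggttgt
SCN1A start 1 (chr2:166128021-166128270, minus strand): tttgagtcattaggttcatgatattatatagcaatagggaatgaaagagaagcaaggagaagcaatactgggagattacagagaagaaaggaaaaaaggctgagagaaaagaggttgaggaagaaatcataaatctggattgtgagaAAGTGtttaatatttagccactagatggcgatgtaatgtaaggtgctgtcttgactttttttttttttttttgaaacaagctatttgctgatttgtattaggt
SCN1A start 2 (chr2:166149162-166149411, minus strand): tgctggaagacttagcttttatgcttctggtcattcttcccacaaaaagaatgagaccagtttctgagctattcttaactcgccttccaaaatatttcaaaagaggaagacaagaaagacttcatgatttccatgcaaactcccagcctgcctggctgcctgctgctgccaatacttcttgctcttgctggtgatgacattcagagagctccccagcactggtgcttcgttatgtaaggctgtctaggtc

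Among the genes higher with RA, the share of G and C was 81.6% in CACNA1D, 80.8% in CACNA2D3 and 78.8% at the first start of CACNA2D2, with 41, 31 and 34 CpG pairs. The window of the second CACNA2D2 start had 58.0% and 2 CpG pairs. CACNA1C, which lay within 2-fold, had 85.6% and 51 CpG pairs. The windows of genes lower with RA had 45.2% in CACNA1F and 33.6% and 45.6% in SCN1A, with 6, 1 and 2 CpG pairs. Over all 35116 RefSeq windows of this length the medians were 58.0% and 11 pairs, and over the 40 channel windows they were 63.2% and 15 pairs.

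AGGTCA, the half-site to which retinoic acid receptors among others bind, occurred in 1 of the 40 channel windows, that of CACNA1D, 193 bases before the start, and in 12.1% of all windows. AAGTG occurred in 14 channel windows, including CACNA1D and the first start of SCN1A, and in 37.6% of all windows. GGGCGG occurred in 21, with 6 matches in CACNA1C, 6 in CACNA2D3, 4 in CACNA1D, 3 in CACNA2D2 and 1 in CACNA1F, and in 42.6% of all windows. AGGTGT was found in 3 channel windows (9.57% of all), AGATAA in 1 (9.17%) and TATAAA in 2 (10.7%). A match describes letters in this window and not a bound site.

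Genes whose products act with the channels were taken from 4 lists. Of the calcium channel partners, 13 of 14 were counted, and 2 were at least 2-fold higher with RA in GFP-positive cells and none passed the limit downwards. REM2 and STAC3 were under the limit at -0.95 and -0.71, with CPM ratios of 0.473 (0.386 to 0.578) and 0.432 (0.260 to 0.698). GEM, a small GTPase that holds back L-type current through the beta subunit, had 819 reads with RA and 143 in CTR and was 6.14-fold higher (5.13 to 7.38). AKAP5, an anchoring protein for kinases and phosphatases, had 73 against 19 reads and was 4.12-fold higher (2.46 to 7.22). Both stood higher in GFP-negative cells. GEM had 30.6 and 4.99 CPM in the GFP-positive and 71.0 and 23.0 CPM in the GFP-negative libraries, RA first. AKAP5 had 2.73 and 0.663 CPM against 8.11 and 16.4 CPM. The ratio of RA to CTR in GFP-negative cells was 3.09 for GEM (2.54 to 3.79) and 0.494 for AKAP5 (0.379 to 0.651). The part of other cell types in these levels was not tested. RRAD, a relative of GEM, had 178 and 201 CPM. The abundant partners AHNAK, CALM2 and CALM3 had differences of -0.99, 0.25 and 0.28. Between the fractions, 2 partners were higher and 2 lower in CTR GFP-positive cells, and 1 was higher and 3 were lower with RA.

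Sodium channel partners showed no difference of 2-fold between the GFP-positive libraries among the 10 of 12 counted, with a median of -0.21. Among the most abundant were the ankyrin gene ANK3 at 120 and 174 CPM, the kinase gene CAMK2D at 139 and 177 CPM, FGF13, which binds the channel tail, at 83.7 and 120 CPM, and ANK2 at 68.1 and 92.1 CPM, RA first. Each of these had a higher value in CTR, none by 2-fold. Between the fractions, 4 were higher in GFP-positive cells of each culture, among them FGF13 and ANK2, and 1 was lower in CTR. In RA-treated against CTR GFP-negative cells, 2 calcium channel partners were higher and none lower, and no sodium channel partner passed the limit, although FGF11 had a CPM ratio of 0.423 (0.270 to 0.678) and a difference of -0.99.

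In the list of excitation-contraction coupling, which links calcium entry to release and reuptake, 1 of 10 genes was at least 2-fold higher with RA in GFP-positive cells. SLN, the atrial regulator of the calcium pump, had 482 reads with RA and 26 in CTR and was 19.9-fold higher (13.4 to 30.7). The pump gene ATP2A2 had a difference of 0.31, its inhibitor gene PLN -0.24, the exchanger gene SLC8A1 -0.45, the release channel gene RYR2 -0.47 and TRDN, which anchors the release complex, -0.20. In GFP-positive against GFP-negative cells, 7 were higher and 1, SLN, was lower in both cultures.

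None of the 7 pacemaker and leak channel genes was 2-fold apart in log2(CPM + 1) between the GFP-positive libraries, with a median of 0.14. HCN4, the main pacemaker channel gene of the heart, had 530 CPM with RA and 457 CPM in CTR GFP-positive cells, against 31.3 and 67.7 CPM in GFP-negative cells. HCN3 had a difference of 0.14, and UNC80 and UNC79, subunit genes of the sodium leak channel, 0.59 and -0.73. NALCN, the pore gene of that channel, had 3 reads with RA and 27 in CTR, a CPM ratio of 0.119 (0.0231 to 0.387), past 2-fold, beside a difference of -0.80 in log2(CPM + 1). Relative to GFP-negative cells, 5 of the 7 were higher and 1 lower in CTR, and 4 higher and 1 lower with RA. In RA-treated against CTR GFP-negative cells 3 were lower, HCN4 among them with a difference of -1.09, and 1 was higher.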

How the data were processed

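RNA of 4 sorted populations of NKX2.5 (eGFP/w) hESC cultures was sequenced, with 1 library per group. The authors deposited raw counts of uniquely aligned reads per Ensembl gene, with no normalization. They aligned trimmed read pairs to a custom hg19 genome and counted them without strand. The submitters' processing notes name GSNAP, SAMtools 0.1.18 and HTSeq 0.6.1p1, and the Ensembl release is not given in the sources used here. Every column was mapped to a sample.

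The channel genes and the gene lists were chosen with earlier results of these data known. CPM used TMM factors that edgeR 4.0.16 in R 4.3.3 computed from the whole table. Genes with a mean of at least 1 CPM over the 4 libraries were compared as differences of log2(CPM + 1), and those apart by at least 1 were counted. With 1 library per group no test was made. Ratios have Clopper-Pearson and CPM exact Poisson 95% intervals from scipy 1.17.1. Gene lengths, positions and shared exons came from the GENCODE 44 annotation lifted to GRCh37, which is not the annotation of the counts. Members with a mean of at least 1 CPM were described singly. From the partner lists, the 5 genes with the highest mean CPM and those 2-fold apart between the GFP-positive libraries were named. The 7 channel genes below 1 CPM, CHDH, SCN1A-AS1, REM2, STAC3, FGF11 and NALCN were named after their values were seen. So were MYH11 and the other single cell type markers, apart from NKX2-5. PECAM1 and NEFL were not analysed here, and values of some other genes covered by these rules are not reported here.

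The 8 alternatives were library size alone, DESeq2 1.42.0 size factors, library size without mitochondrial genes, pseudocounts of 0.25 and 5 CPM, no filter, a mean of at least 5 CPM, and thinning to 4371101 reads. Shares were recomputed with the exon union length. The procedure was also run on simulated reads that had counting error alone, with changes planted in the more abundant genes. That run does not cover differences between cultures, amplified reads or changes of low genes. Scripts ran in Python 3.11.15, and matplotlib 3.10.9 made the figures.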

Additional observations from a re-analysis of the deposited data

Results flagged for a closer look

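In 5 channel genes the RA-treated library stood above CTR in one sorted fraction and below it in the other, and both counting intervals left out a ratio of 1. RA minus CTR differences in log2(CPM + 1), GFP-positive cells first, were 0.48 and -0.56 for the T-type pore gene CACNA1H, and 0.56 and -0.67 for its relative CACNA1I, whose difference in GFP-positive cells was 0.06 in thinned libraries. They were 0.45 and -1.34 for the skeletal muscle L-type gene CACNA1S, which had 4 reads in RA-treated and 9 in CTR GFP-negative cells. They were 0.15 and -0.49 for the beta subunit gene CACNB1. SCN2A, a sodium channel gene of brain, ran the other way, with -0.65 and 1.09, the latter on 87 against 5 reads. Whether the fractions differ in this was not tested, as each group had 1 library. Over the 33 counted channel genes, 17 had the same sign in both fractions and 16 (48.5%) the opposite sign, and 42.9% of all 17199 counted genes had opposite signs. Opposite signs with both intervals leaving out 1 were found in 12.2% of all counted genes and in 15.2% of the channel genes, a share near that background.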

How the results depend on the processing

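The counts of genes 2-fold apart depended most on how low genes were treated. With a pseudocount of 5 CPM, RA against CTR gave 1 higher and 0 lower channel genes in GFP-positive cells (3 and 3 as reported) and 0 and 1 in GFP-negative cells (2 and 6). GFP-positive against GFP-negative cells then gave 7 higher and 2 lower in CTR (12 and 5), and 7 higher and 1 lower with RA (10 and 3), with a median of 0.24 (0.61). With a pseudocount of 0.25 CPM, 8 and 5 genes were lower in GFP-positive cells of CTR and RA-treated cultures. A mean of at least 5 CPM left 14 channel genes. Among them 0 were lower with RA in GFP-positive cells, and 0 were higher and 2 lower in GFP-negative cells. Between the fractions, 6 were higher and 1 lower in each culture, with medians of 0.57 in CTR (0.09) and 0.84 with RA. Scaling by library size without mitochondrial genes gave 1 gene higher with RA in GFP-negative cells. It shifted the median of all genes in that comparison by -0.15, and library size alone by -0.12. DESeq2 size factors, the absence of a filter and thinning moved no count by more than 2 genes, but the median of RA against CTR in GFP-positive cells turned from 0.10 to -0.04 with thinning.

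Of the 44 differences of at least 2-fold, all 44 kept their sign under the 6 alternatives for single genes, and 19 stayed past 2-fold under all 6. Of 132 per-kb shares, 119 moved by less than 5 percentage points with the exon union length. Leaving out the shallow CTR GFP-negative library, chosen after seeing the data, gave 3 higher and 3 lower in RA against CTR GFP-positive cells, with a median of 0.09, and 10 higher and 2 lower between the fractions with RA, with a median of 0.63. Comparisons with that library have no value without it. No paired analysis was possible because each of the 4 comparisons sets 1 library against 1. A fit of the fractions with culture as a block would take the CTR and RA-treated cultures as replicates of each other and was not run. In the CTR GFP-negative library 3 reads amount to 0.639 CPM, against 0.105 to 0.117 CPM in the other 3, so differences of low genes were less well resolved there.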
